A study of Taeniopygia guttata with 46 samples.

Results

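In adult male zebra finches (Taeniopygia guttata), 100 genes were described that lay on opposite sides in the posterior telencephalon, a forebrain region, and in the testis of birds kept at 43 °C. They were chosen from 18618 Ensembl gene identifiers measured in both tissues by RNA sequencing. Counts were scaled to a library total of 1000000 (CPM). Genes were kept if their mean was at least 5 CPM in each tissue (8528 genes) and if the means of the tissues lay within 4-fold of each other (6718 genes). In each tissue, Welch's t statistic compared log2(CPM + 0.5) of the birds at 43 °C with that of the birds at 27 and 35 °C pooled. The sign of t was opposite in the tissues in 3282 of these genes, or 48.9%. The 100 genes with the highest smaller absolute t of the pair were taken. Of these, 63 lay higher in the telencephalon and lower in the testis at 43 °C, and 37 lay lower in the telencephalon and higher in the testis. With the libraries scaled by the trimmed mean of M values (TMM) in place of their totals, the same rule gave 41 and 59 genes, 72 of them among the original 100.

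All birds were adult males held for 5 h in air at 27, 35 or 43 °C; per the labels, 35 °C lies within the thermoneutral zone, 27 °C is colder and 43 °C hotter than it. The 46 libraries came from the telencephalon of 8 birds per temperature and from the testis of 8 birds kept at 35 °C and 7 at each other temperature. Both tissues were measured in 22 of the 24 birds. Each library is 1 tissue of 1 bird, so replicates within a tissue are separate animals.

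The thermoneutral zone is the range of air temperatures in which a resting bird keeps its body temperature without extra metabolic cost. Above it, birds lose heat by evaporation, mainly by panting, and body temperature can rise. The testes of birds lie inside the body cavity and work at core body temperature, while in songbirds the hind part of the telencephalon includes areas that process song. Heat is known across animals to induce chaperones, the proteins that keep other proteins folded, in many tissues. The identifiers could not be paired with gene symbols (0 of 18618 were found in the RefSeq gene table of assembly bTaeGut7.mat), so no function is attached to any gene and no marker gene of a cell type or chaperone could be looked up.

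Telencephalon libraries held 10201598 to 16862943 counts and testis libraries 14232073 to 25440619, with overlapping ranges at the 3 temperatures. The members had a mean of 74.2 to 7887 counts per library in the telencephalon (median 528) and of 97.8 to 9011 in the testis (median 856). Together they held 0.631 to 0.708% of the counts of a telencephalon library and 0.697 to 0.833% of those of a testis library. For T142, a bird at 27 °C, the labels of the testis sample disagree: 1 field gives brain and the others give testis. Its correlation with the mean testis profile was 0.990, the lowest of the testis libraries, and no testis library correlated with the mean telencephalon profile above 0.755. It was kept as testis, and some of the results that rest on it are also given without it. The levels of single genes are given with it. In bulk tissue, fewer cells of a type and less RNA per cell cannot be told apart.

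The differences that define the members were small. In the 63 genes higher in the telencephalon, the median log2 difference between 43 °C and the pooled birds at 27 and 35 °C was 0.14 in the telencephalon, a ratio of 1.10, and -0.29 in the testis, a ratio of 0.818. In the 37 genes lower in the telencephalon, the medians were -0.14 (a ratio of 0.908) and 0.22 (a ratio of 1.17). The medians over all 6718 genes within the limits on level were -0.02 in each tissue. The testis had the larger absolute log2 difference in 87 of the 100 members. The standard deviation between birds of a group was also larger there (median over members 0.269 log2 units, against 0.141 in the telencephalon). These values chose the members, so they are a description and carry no test.

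**Figure D1:**
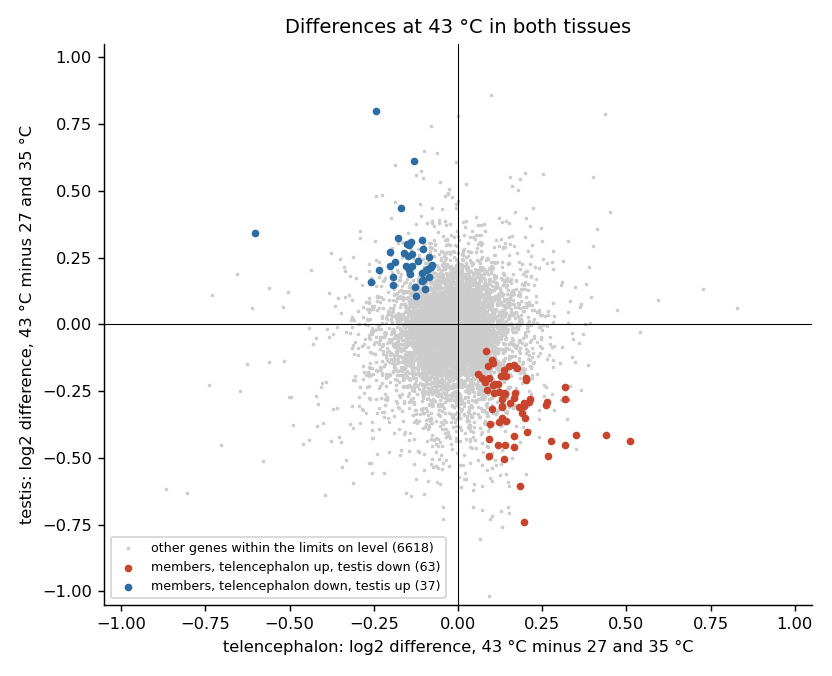
Each point is 1 of 6718 genes within the limits on level, with the log2 difference between birds at 43 °C and birds at 27 and 35 °C in the telencephalon on the x axis and in the testis on the y axis. The 63 members higher in the telencephalon (red) lie in the lower right corner and the 37 members lower there (blue) in the upper left, around the bulk of the other genes (grey). Outside the axes lie 3 genes, none of them a member.

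Among the genes higher in the telencephalon and lower in the testis, ENSTGUG00000004504 ranked first, with a smaller absolute t of 3.58. Its level in the telencephalon was 73.6, 79.2 and 83.2 CPM at 27 °C (lowest, median and highest bird), 68.1, 82.6 and 86.9 CPM at 35 °C and 82.7, 88.0 and 94.2 CPM at 43 °C. In the testis it was 91.3, 120.0 and 128 CPM at 27 °C, 88.5, 100.9 and 112 CPM at 35 °C and 90.6, 93.4 and 99.3 CPM at 43 °C. All 8 telencephalon libraries at 43 °C lay above the median of the other birds and all 7 testis libraries lay below it, with ranges that overlapped in both tissues. The log2 difference was 0.14 ± 0.0336 (SE) in the telencephalon (8 against 16 birds) and -0.17 ± 0.0477 (SE) in the testis (7 against 15 birds).

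ENSTGUG00000002758, second in rank, was at 32.3, 36.0 and 45.3 CPM in the telencephalon at 27 °C, at 36.4, 38.0 and 42.8 CPM at 35 °C and at 38.4, 40.6 and 45.6 CPM at 43 °C. In the testis the values were 18.8, 24.0 and 29.8 CPM at 27 °C, 19.8, 22.7 and 31.6 CPM at 35 °C and 14.0, 18.3 and 22.1 CPM at 43 °C. Every bird at 43 °C again lay beyond the median of the others in both tissues, and the groups overlapped. The log2 differences were 0.13 ± 0.0433 (SE) in the telencephalon and -0.35 ± 0.112 (SE) in the testis.

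ENSTGUG00000002603 is a gene of low level, with 5.09, 6.77 and 7.67 CPM in the telencephalon at 27 °C, 4.91, 6.88 and 7.99 CPM at 35 °C and 6.08, 7.93 and 8.24 CPM at 43 °C. Its testis levels spread more widely, over 5.90, 11.3 and 20.1 CPM at 27 °C, 11.5, 14.7 and 20.3 CPM at 35 °C and 8.01, 9.41 and 12.04 CPM at 43 °C. In the testis the lowest bird of all was T142 at 27 °C. The log2 differences were 0.20 ± 0.0684 (SE) in the telencephalon and -0.40 ± 0.149 (SE) in the testis.

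ENSTGUG00000002065 had the clearest separation in the telencephalon. Its level there was 62.4, 66.2 and 74.96 CPM at 27 °C, 52.5, 68.9 and 70.2 CPM at 35 °C and 74.8, 83.2 and 92.8 CPM at 43 °C, so that the lowest bird at 43 °C (T144) lay just under the highest at 27 °C (T145). Its testis level was 128, 164 and 211 CPM at 27 °C, 146.05, 161 and 204 CPM at 35 °C and 112, 145.6 and 168 CPM at 43 °C, with wide overlap. The log2 differences were 0.32 ± 0.0457 (SE) in the telencephalon and -0.23 ± 0.0899 (SE) in the testis. It was the single member called by edgeR's quasi-likelihood test at an adjusted p under 0.05 in the contrast that chose the members. In that contrast 0.0151% of all telencephalon genes and 0% of all testis genes were called. The rule chose the gene on the same values, so this call is a description and adds no support.

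The other 6 of the 10 highest ranked genes of this direction were ENSTGUG00000003767, ENSTGUG00000001681, ENSTGUG00000003270, ENSTGUG00000018241, ENSTGUG00000001768 and ENSTGUG00000002572. Over the 10 genes, telencephalon log2 differences were 0.12 to 0.32 (SEs 0.0336 to 0.103), and testis log2 differences were -0.50 to -0.17 (SEs 0.0477 to 0.177). ENSTGUG00000003270 had the largest testis difference of the 10, -0.50 ± 0.151 (SE). Its testis level was 14.96, 32.6 and 49.3 CPM at 27 °C, 27.4, 36.5 and 40.1 CPM at 35 °C and 16.3, 21.8 and 32.5 CPM at 43 °C, and again the lowest bird was T142. This library was the lowest testis library of all in 19 of the 63 genes, and in 33 of them the lowest was a library at 43 °C. In the 37 genes of the other direction, T142 was the highest testis library in 4. The rule favours libraries at 43 °C in such counts, and the shares over all genes within the limits on level were not counted. The remaining 53 of the 63 genes had log2 differences of 0.06 to 0.51 in the telencephalon and of -0.74 to -0.10 in the testis.

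**Figure D2:**
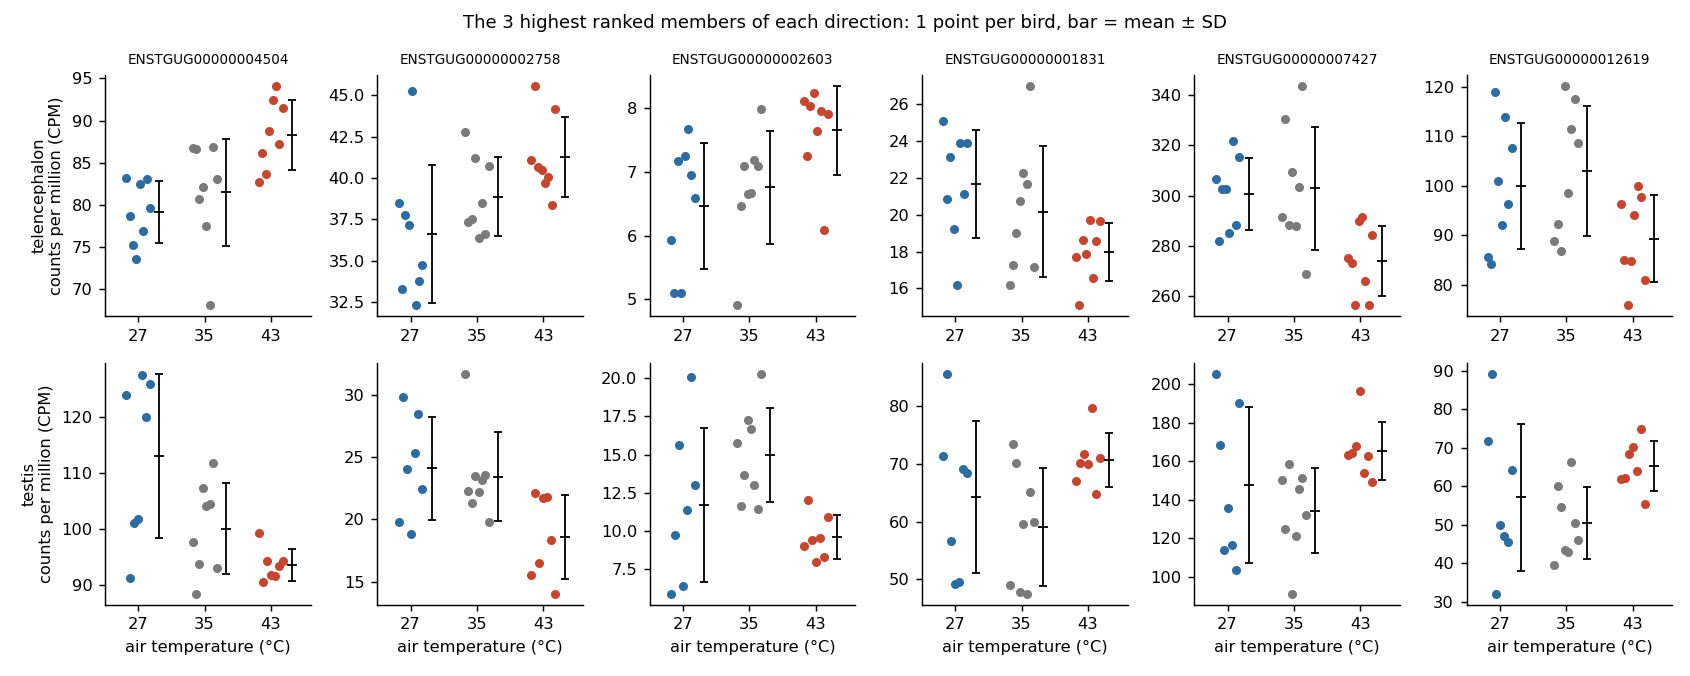
Levels in CPM (y axis, not starting at 0, 1 scale per panel) of the 3 highest ranked members of each direction at 27, 35 and 43 °C (x axis), with 1 point per bird and the mean ± SD beside each group; the telencephalon is in the upper row and the testis in the lower. For ENSTGUG00000004504 the testis points at 43 °C span 90.6 to 99.3 CPM, inside the wider range at 35 °C (88.5 to 112 CPM), and in every panel the birds at 43 °C overlap with the other groups.

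Among the genes lower in the telencephalon and higher in the testis, ENSTGUG00000001831 ranked first. In the telencephalon it was at 16.2, 22.1 and 25.1 CPM at 27 °C, at 16.2, 19.9 and 27.0 CPM at 35 °C and at 15.1, 18.2 and 19.7 CPM at 43 °C. In the testis it was at 49.1, 68.5 and 85.6 CPM at 27 °C, at 47.5, 59.8 and 73.4 CPM at 35 °C and at 64.8, 70.2 and 79.8 CPM at 43 °C. The birds at 43 °C formed a narrow group inside the range of the others in the testis and at its lower end in the telencephalon. The log2 differences were -0.20 ± 0.0709 (SE) and 0.22 ± 0.0777 (SE).

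ENSTGUG00000007427 was at 282, 303 and 322 CPM in the telencephalon at 27 °C, at 269, 297 and 344 CPM at 35 °C and at 257, 274 and 291 CPM at 43 °C. In the testis it was at 103, 135.6 and 205 CPM at 27 °C, at 91.2, 138.8 and 158.45 CPM at 35 °C and at 149.2, 163 and 196 CPM at 43 °C. All 8 telencephalon libraries at 43 °C lay below the median of the other birds and all 7 testis libraries above it. The log2 differences were -0.14 ± 0.0345 (SE) and 0.26 ± 0.0949 (SE).

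ENSTGUG00000012619 was at 84.1, 98.6 and 119 CPM in the telencephalon at 27 °C, at 86.8, 104 and 120.2 CPM at 35 °C and at 75.9, 89.5 and 100.01 CPM at 43 °C. In the testis it was at 32.1, 50.1 and 89.1 CPM at 27 °C, at 39.5, 48.2 and 66.3 CPM at 35 °C and at 55.3, 63.9 and 74.9 CPM at 43 °C. The highest testis library was one at 27 °C. The log2 differences were -0.18 ± 0.0679 (SE) and 0.32 ± 0.110 (SE).

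ENSTGUG00000011721 had the largest testis difference of all 37 genes, 0.80 ± 0.176 (SE), beside -0.24 ± 0.0939 (SE) in the telencephalon. Its testis level was 32.7, 51.9 and 83.2 CPM at 27 °C, 28.8, 45.7 and 111 CPM at 35 °C and 66.8, 95.8 and 111 CPM at 43 °C. Its telencephalon level was 20.7, 26.9 and 30.5 CPM at 27 °C, 20.3, 30.1 and 46.1 CPM at 35 °C and 17.8, 24.9 and 25.8 CPM at 43 °C. All 7 testis libraries at 43 °C exceeded the median of the others, but a library at 35 °C lay nearly as high as the highest of them.

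ENSTGUG00000005772 followed in the testis with 38.8, 58.4 and 103 CPM at 27 °C, 40.5, 56.3 and 75.2 CPM at 35 °C and 72.5, 78.5 and 146.1 CPM at 43 °C, a log2 difference of 0.61 ± 0.171 (SE). In the telencephalon its log2 difference was -0.13 ± 0.0560 (SE), with 6 of 8 birds at 43 °C below the median of the others. The other 5 of the 10 highest ranked genes were ENSTGUG00000001469, ENSTGUG00000002057, ENSTGUG00000005908, ENSTGUG00000004594 and ENSTGUG00000006976. Over the 10 genes, telencephalon log2 differences were -0.24 to -0.09 and testis log2 differences 0.14 to 0.80. Over the remaining 27 genes they were -0.60 to -0.08 and 0.11 to 0.44.

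Some larger differences came with a large spread in at least 1 tissue and so ranked lower. The genes in this paragraph were picked after their values were seen. ENSTGUG00000006579 had the largest telencephalon difference, -0.60 ± 0.276 (SE), with 36.1, 79.9 and 97.8 CPM at 27 °C, 46.4, 97.9 and 122 CPM at 35 °C and 22.6, 56.2 and 109 CPM at 43 °C. ENSTGUG00000001509 had the largest difference upward in the telencephalon, 0.51 ± 0.145 (SE), from 3.75, 5.13 and 6.17 CPM at 27 °C and 2.87, 4.87 and 8.09 CPM at 35 °C to 4.93, 7.32 and 10.2 CPM at 43 °C. ENSTGUG00000004774 had the largest difference downward in the testis, -0.74 ± 0.279 (SE), with 3.87, 12.7 and 21.2 CPM at 27 °C, 4.01, 10.5 and 23.8 CPM at 35 °C and 3.96, 5.02 and 10.8 CPM at 43 °C. The ranges of the groups overlapped widely in all 3. T142, a bird at 27 °C, was the lowest testis library for ENSTGUG00000004774 and for ENSTGUG00000001509 (5.24 CPM). For ENSTGUG00000006579 it was the highest testis library (44.8 CPM).

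At the limit of the rule, ENSTGUG00000010604 (rank 99) and ENSTGUG00000005560 (rank 100) had smaller absolute t values of 1.713 and 1.709, with log2 differences of 0.09 and 0.08 in the telencephalon and -0.43 and -0.21 in the testis. The next genes, ENSTGUG00000004592 (1.707) and ENSTGUG00000007764 (1.706), had 0.11 and 0.09 in the telencephalon and -0.34 and -0.23 in the testis. No step in the values separated the members from the genes that followed.

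In no member did the birds at 43 °C lie apart from all other birds in either tissue, and the same held for all 6718 genes within the limits on level (0% in the telencephalon and 0% in the testis). Every bird at 43 °C lay beyond the median of the others in the telencephalon in 21 members, in the testis in 39, and in both tissues in 8, of which 4 were of each direction. In the member with the fewest, 4 birds did so in each tissue. The choice of members favours high counts of this kind, and the share over all 6718 genes was not counted. The counts of the tissues are not alike either, since 8 telencephalon and 7 testis libraries were at 43 °C. At an unadjusted edgeR p under 0.05 in the contrast that chose them, 68 members passed in the telencephalon (12.5% of all genes) and 44 in the testis (8.05% of all genes), counts that the choice of members fixes.

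Genes on the same side in both tissues were about as frequent as those on opposite sides. Of the 6718 genes, 3436 had the same sign of t in both tissues. The 100th of those ranked in the same way had a smaller absolute t of 1.80, against 1.71 for the 100th with opposite signs. A smaller absolute t of at least 2 was found in 60 genes with the same sign and in 46 with opposite signs. The highest value was 3.58 among the opposite genes (ENSTGUG00000004504) and 2.88 among those of the same sign.

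To see the same measure in birds that took no part in the choice, both libraries of 1 bird were left out, the 100 genes were chosen again from the remaining birds, and the left-out bird was compared with the remaining birds at 27 and 35 °C. Its score is the mean over the 100 genes of its log2 difference from them, signed so that a positive score follows the direction of the genes. The birds it is compared with helped to choose the genes and so tend to lie on the other side. A left-out bird of any temperature can therefore score above 0, and 0 is not a neutral value. In the telencephalon, the 7 left-out birds at 43 °C had scores of 0.0190 to 0.215 (median 0.0651), all above 0. The 15 left-out birds at 27 and 35 °C had scores of -0.0844 to 0.120 (median 0.0293), and 10 were above 0. Of the 7 birds at 43 °C, 3 lay above every bird of the other temperatures, while 8 of the 15 others lay above the lowest bird at 43 °C. Among the birds that chose the genes, the mean absolute log2 difference was 0.155 to 0.179.

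In the testis, the 7 left-out birds at 43 °C had scores of -0.0285 to 0.288 (median 0.189), with 6 above 0. The 15 others ran from -0.139 to 0.526 (median 0.0562), with 10 above 0. The highest scores of all belonged to birds T142 (0.526) and T149 (0.333), both at 27 °C, and no bird at 43 °C exceeded them. The lowest at 43 °C was T136 (-0.0285). In the birds that chose the genes, the mean absolute log2 difference was 0.273 to 0.332. The scores therefore overlapped between temperatures in both tissues and were lower in the left-out birds at 43 °C, at the median, than the difference by which the genes had been chosen. Since the sets share most of their birds, the scores are not independent and were not tested. Without bird T142 altogether, the median scores of the birds at 43 °C were 0.0771 in the telencephalon and 0.235 in the testis.

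**Figure D3:**
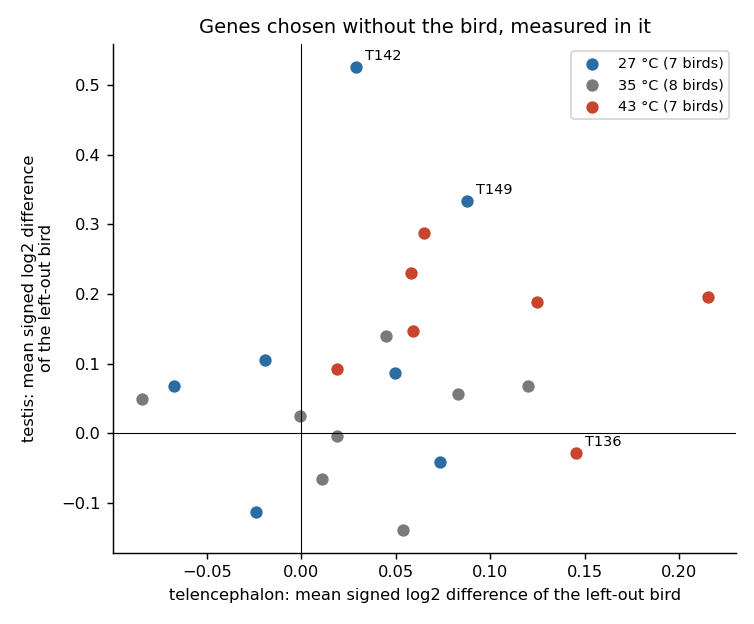
Each point is 1 of 22 birds, measured in 100 genes chosen without it: the mean signed log2 difference from the remaining birds at 27 and 35 °C in the telencephalon (x axis) and in the testis (y axis), in log2 units. The 7 birds at 43 °C (red) lie to the right of 0 on the x axis, as do 10 of the 15 others. T142 and T149, kept at 27 °C (blue), have the highest testis scores, 0.526 and 0.333.

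Whether the members also differed between 27 and 35 °C is a comparison whose direction the rule did not use, although the spread among these birds entered t and so favoured genes with small differences between them. In the telencephalon no gene was called by edgeR (0%) and none by DESeq2. At an unadjusted edgeR p under 0.05 there were 3 members, against 3.38% of all 13254 genes tested. These were ENSTGUG00000011721 (log2 fold change of 27 against 35 °C -0.25 ± 0.112 SE), ENSTGUG00000001290 (-0.22 ± 0.0769 SE) and ENSTGUG00000004377 (0.43 ± 0.169 SE), the last 2 named after their values were seen, each with an adjusted p of 0.9999. Without bird T155 the count was 1. Over the members the median log2 fold change was -0.01 and the range -0.32 to 0.43.

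In the testis likewise no gene was called at 27 against 35 °C by edgeR (0%) or DESeq2. At an unadjusted edgeR p under 0.05 there were 5 members, against 4.33% of all 14149 genes tested, all 5 of the set higher in the telencephalon. Named after their values were seen, they were ENSTGUG00000001057 (-0.26 ± 0.116 SE), ENSTGUG00000003380 (-0.33 ± 0.150 SE), ENSTGUG00000015597 (-0.21 ± 0.0997 SE), ENSTGUG00000005648 (-0.20 ± 0.0936 SE) and ENSTGUG00000003774 (0.72 ± 0.287 SE), each with an edgeR adjusted p of 0.961. The count depended on single birds: it was 1 without T146, 2 without T142, T145 or T158, 3 without T139, T149 or T159, and 11 without T148 or T155. DESeq2 gave 8.

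The direction of the change between 27 and 35 °C was also counted. Of the 63 genes higher in the telencephalon and lower in the testis at 43 °C, 50 had a lower fitted testis level at 27 than at 35 °C, with a median log2 fold change of -0.13, where 44.0% of all 6718 genes did so with a median of 0.02. The mean testis level at 43 °C was below both others in all 63, which the rule nearly fixes, and that at 35 °C lay between the others in 14. Over all 6718 genes, the testis mean at 43 °C lay beyond both others, in either direction, in 4676. That at 35 °C lay between the others in 2219. Without bird T142, 41 of the 63 genes were lower at 27 than at 35 °C, with a median of -0.07, where 47.3% of all genes were lower. Over all 22 fits that left out 1 testis library the number was 41 to 52. In the 37 genes of the other direction, 17 were lower at 27 °C and the median was 0.01. In the telencephalon, 40 of the 63 and 20 of the 37 genes were lower at 27 than at 35 °C, with medians of -0.03 and -0.01, as were 3334 of all 6718 genes. The testis count of the 63 genes without T142 (41) was close to their telencephalon count (40), for which T142 was kept. The medians were -0.07 and -0.03. These genes vary together between birds, so the counts do not rest on independent genes, and they carry no test.

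**Figure D4:**
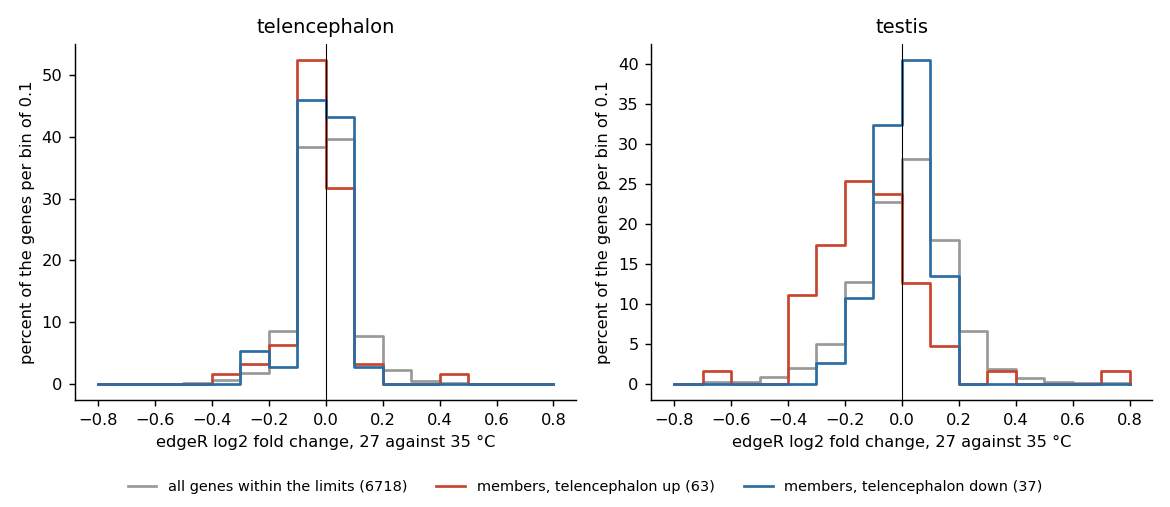
Distribution of the edgeR log2 fold change of 27 against 35 °C (x axis, bins of 0.1) as the percent of the genes of each kind (y axis), for all 6718 genes within the limits on level (grey), the 63 members higher in the telencephalon at 43 °C (red) and the 37 lower there (blue). In the testis the red line is shifted to the left, with a median of -0.13 (-0.07 without bird T142), while in the telencephalon all 3 lines are centred near 0.

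The change from 35 to 27 °C was compared between tissues directly, in a main fit that ignored which libraries came from the same bird. No gene was called for a tissue difference by edgeR over 12523 genes (0%). DESeq2 called 6 genes, none of them a member. At an unadjusted edgeR p under 0.05 there were 4 members, against 3.39% of all genes: ENSTGUG00000002658 (difference, testis minus telencephalon, -0.46 ± 0.187 SE on the log2 scale), ENSTGUG00000000112 (-0.41 ± 0.197 SE), ENSTGUG00000018649 (0.63 ± 0.302 SE) and ENSTGUG00000003774 (1.02 ± 0.377 SE), named after their values were seen. Each had an edgeR adjusted p of 0.9997. With the bird as a block the count was 6, and it was 7 without T140 or T148 and 8 without T155. The fitted changes of both tissues had opposite signs in 41 of the 100 members and in 45.0% of all genes within the limits on level.

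Within a temperature group, members of a direction tended to deviate together from bird to bird, less clearly so for the 37 genes in the testis. In the telencephalon the median correlation between pairs of genes was 0.118 among the 63 genes and 0.189 among the 37, against 0.0325 over all pairs within the limits on level, and -0.101 between genes of opposite direction. In the testis the medians were 0.192, 0.113, 0.0685 and -0.0981. With TMM scaling the medians for the pairs within a direction were 0.122 and 0.134 in the telencephalon and 0.193 and 0.0996 in the testis, against 0.00326 and 0.00644 over all pairs. Without T142 the testis medians were 0.148, 0.0790, 0.0722 and -0.0605, so that of the 37 genes (0.0790) lay close to that of all pairs (0.0722). The rule used the same libraries, so these correlations are a description, and its part in them was not tested.

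Between the tissues of the same bird, the deviation from the group mean correlated with a median of 0.0399 over the 100 members (quartiles -0.133 and 0.202, 22 birds). Over all 6718 genes the median was 0.163 (quartiles -0.0280 and 0.356). The correlation was below 0 in 46 of the members and in 28.0% of all genes. The rule used the same libraries, so this is a description, and the part of the rule in it was not tested.

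Set against their mean level, 47 of the 100 members were higher in the telencephalon than in the testis, as were 51.9% of all genes within the limits. The ratio of the tissue means ran from 0.257 to 3.73 over the members, in tables scaled separately per tissue. Each direction held genes on both sides, 30 of 63 and 17 of 37 being higher in the telencephalon.

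Both testis runs, a paired-end and a single-end column per bird that were summed here, gave the direction of the summed counts in all 100 members. The median log2 difference of the 63 genes was -0.26 in the paired-end run and -0.28 in the single-end run, and that of the 37 genes was 0.22 in each. These columns come from the same sample, so this is a technical repeat. The paired-end run held 61.3% of the counts of bird T156 at 43 °C and 53.6 and 54.0% of those of T154 and T157 at 35 °C, against 40.5 to 41.5% in the other birds. Without these 3 birds, a choice made after the data were seen, 53 of the 100 members were chosen again.

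Leaving out single birds showed which members were chosen regardless of any 1 bird. All 100 kept their direction in both tissues in every one of the 24 sets, but 34 (18 higher and 16 lower in the telencephalon) were chosen in all 24, among them all 20 genes that ranked in the first 10 of their direction. Each set shares all but 1 bird with the full data, so kept directions and kept top ranks follow largely from the rule. Another 12 were chosen in fewer than 12 sets. Between 60 and 93 members were kept, 60 to 82 when the bird was one at 43 °C, 83 to 88 at 35 °C and 78 to 93 at 27 °C. The lowest numbers came without T156 (60), T136 (62) and T135 (65). Against 35 °C alone or 27 °C alone, 46 of the 100 were chosen in each case.

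**Figure D5:**
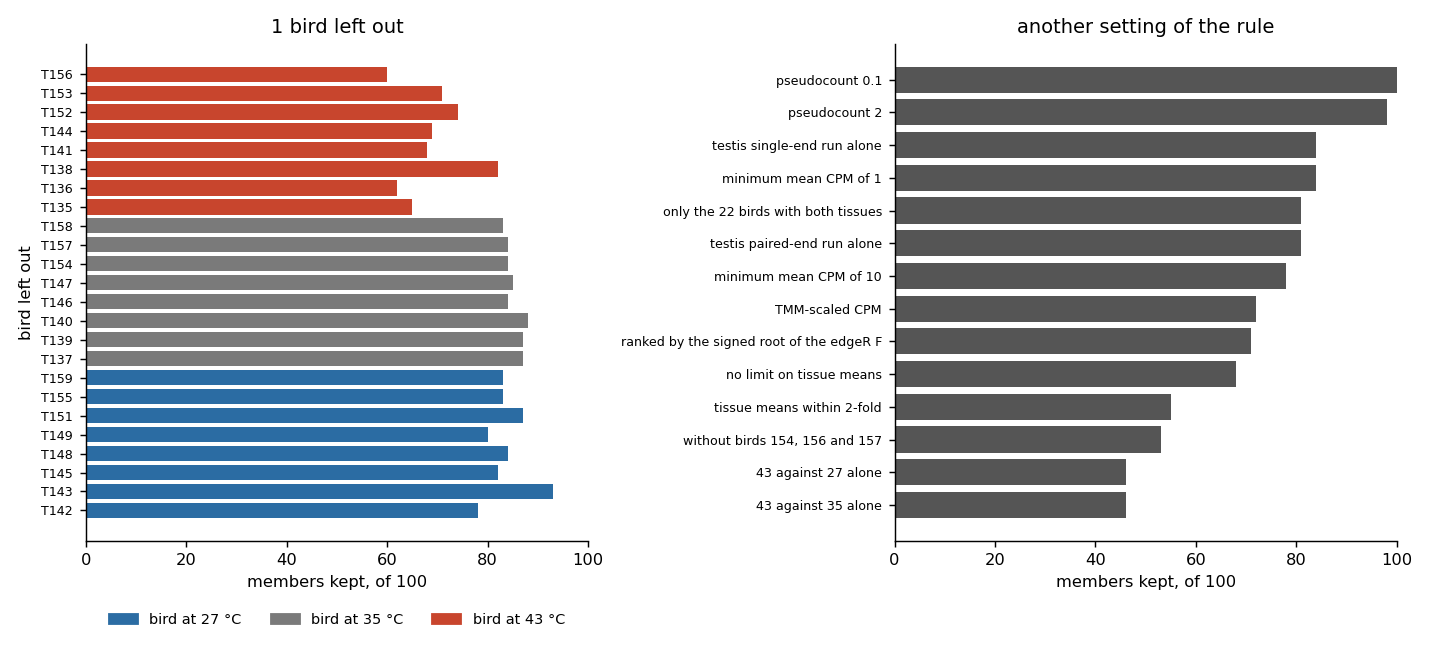
Number of the 100 members chosen again (x axis) when 1 bird is left out (left, bars coloured by the temperature of that bird) and under another setting of the rule (right). Leaving out a bird at 43 °C kept 60 to 82 members, and comparing 43 °C with 35 or 27 °C alone kept 46.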

How the data were processed

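A stranded mRNA library kit was used, according to the labels' protocols. Tools named in the submitters' processing notes are featureCounts 1.6.4, HISAT2 2.1.0, Trimmomatic 0.36 and CASAVA. Not given in the sources used here are their settings, the use of strand, the build and the annotation, so how reads of overlapping or near-identical genes were counted is unknown. The deposited telencephalon values are whole-number read counts per gene. The deposited testis columns were handled as estimated counts, but all values were whole and rounding changed none; the paired-end and single-end columns were summed per bird. All columns were used.

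CPM used column totals without TMM unless stated. Differences of 43 °C against the rest are means of log2(CPM + 0.5), a scale that understates changes of low genes, with Welch SEs. The other comparisons used edgeR 4.0.16 (R 4.3.3): filterByExpr (minimum count 10, minimum total 15), TMM, robust quasi-likelihood F test over all groups, Benjamini-Hochberg adjustment, called under 0.05. SEs were derived from F. The fits were tested on simulated data, where changes near the members' median testis differences were mostly missed in the testis and found more often in the telencephalon, so few or no calls in the testis say little about changes of that size. DESeq2 1.42.0, other scaling, filters and left-out birds were alternatives. The text names the 10 highest ranked genes of each direction and the 2 genes on each side of the limit. The members and lists were chosen with earlier results of these data known. Lists of cell type markers, heat shock and cold-inducible genes need symbols and were not run. Bird numbers were taken to mark the same animal in both tissues. Over 12523 genes the deviations of both tissues correlated weakly in each of 22 birds (0.0583 to 0.241). Values for libraries of different birds are not given here, so these correlations cannot check the pairing.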

Additional observations from a re-analysis of the deposited data

Results flagged for a closer look

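In 9 of 150 groups looked at, 1 library stood apart from the others of its group, where chance gives about 1 in 20, or 7.5. In the testis at 43 °C, bird T141 had 146.1 CPM of ENSTGUG00000005772 against 72.5 to 89.9 CPM in the others, and 192.3 CPM of ENSTGUG00000006976 against 132.6 to 153.5 CPM. At that temperature T144 had 196.3 CPM of ENSTGUG00000007427 (149.2 to 168 CPM in the others), and T136 had 14.59 CPM of ENSTGUG00000010604 (8.45 to 10.5 CPM). At 35 °C, T137 had 31.63 CPM of ENSTGUG00000002758 in the testis (19.8 to 23.5 CPM), and at 27 °C T155 had 16.72 CPM of ENSTGUG00000003767 (5.18 to 8.65 CPM). In the telencephalon at 43 °C, T153 had 6.079 CPM of ENSTGUG00000002603 (7.25 to 8.24 CPM) and 17.83 CPM of ENSTGUG00000011721 (22.4 to 25.8 CPM). At 35 °C, T146 had 24.91 CPM of ENSTGUG00000005560 in the telencephalon (19.0 to 21.4 CPM).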

How the results depend on the processing

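Of the 100 members, 55 were kept with tissue means within 2-fold, 46 against 35 °C alone, 46 against 27 °C alone and 53 without birds T154, T156 and T157; other settings kept 68 to 100, and sets without 1 bird 60 to 93. With TMM scaling 41 genes, not 63, were higher in the telencephalon; without 1 bird this was 46 to 72. All recomputed values of the 24 named genes (TMM and sets without 1 bird) kept their direction and lay within 1 SD of the main value, which the shared libraries make likely. At 27 against 35 °C, leaving out 1 bird gave 1 to 4 telencephalon members at an unadjusted edgeR p under 0.05 and 1 to 11 testis members, for which DESeq2 gave 8. The count over all testis genes was 485 to 1062, highest without T155 (612 with all birds). For the tissue difference of that change, the called genes were 6 with DESeq2, 1 with only the compared groups and 0 to 1 without 1 bird (1 without T142). At an unadjusted p it counted 424 genes with all birds and 373 to 688 without 1 bird, and 4 and 3 to 8 members, both highest without T155. With the bird as replicate block, 0 genes were called, and 472 genes and 6 members lay at an unadjusted p under 0.05, so the block changed no call. The held-out scores and the within-group correlations moved by less than the spread between birds, or by less than 0.1, with TMM and without T142. The spread between birds limits every comparison here. Its median SD over the members was 0.269 log2 units in the testis and 0.141 in the telencephalon. The members' median differences were about as large, -0.29 and 0.22 in the testis and 0.14 and -0.14 in the telencephalon.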
